A study of Mus musculus with 2 samples.

Results

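The enzymes Hk1, Pfkfb3, Fbp2, Gapdh and Eno1 of glycolysis and gluconeogenesis were followed on 2 microarrays of mouse hippocampal RNA. They are 5 genes of these routes, with 5 probes among 60930 on the arrays, that the study's list of changed mRNAs names in the shortened copy of 446 probes held here. That list holds probes whose normalized values differed at least 2-fold between the same 2 arrays. The members were thus chosen by their own difference between control and surgery on these arrays, and their values are a description without a test.

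The arrays were Arraystar mouse lncRNA arrays that also carry mRNA probes. The control array held pooled hippocampal RNA of 3 male C57 mice (C57BL/6 in the study's methods) that had received no specific treatment. The surgery array held the pooled hippocampal RNA of 3 male C57 mice after unilateral nephrectomy, the removal of 1 kidney. By the study's methods, these mice also received ketamine and xylazine anaesthesia, ropivacaine under the skin and saline. The operation and these drugs cannot be told apart here. All mice were 16 to 18 months old, and the tissue was taken on day 3. The study's methods describe a repeat of the assay, but 1 array per group was analysed here. With 1 array of 1 pool per group there was no replicate check, and array, pool and condition cannot be told apart. In whole hippocampus, fewer cells of a type and less RNA per cell cannot be told apart either.

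Glycolysis splits glucose into pyruvate and yields ATP and NADH, and gluconeogenesis runs back from pyruvate to glucose with its own enzymes at the irreversible steps. Brain tissue depends mainly on glucose. In the hippocampus, astrocytes are known for high glycolytic activity and export of lactate, while neurons keep the activity of Pfkfb3 low. Gapdh is widely used as a reference gene for RNA measurements.

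The probes are 60-base oligonucleotides, and their coordinates show which part of each transcript was read. Positions are given along the genomic span of the transcript that the probe table lists, from its 5′ end. The Hk1 probe lies at 0.276% of that span and can be read without a stop codon in 1 frame. The Pfkfb3 probe lies at 68.5% and is also open in 1 frame. The Gapdh probe lies at 4.42%. Of the Fbp2 probe, at 99.0%, and the Eno1 probe, at 0.368%, the first 30 bases are shown. These 2 probes are open in 1 and 2 frames over their full length, so an open frame does not set the probes shown apart. All are given 5′ to 3′ as the study's probe table has them, and no base is marked by capitals.
Hk1: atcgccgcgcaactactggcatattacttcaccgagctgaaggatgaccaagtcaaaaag
Pfkfb3: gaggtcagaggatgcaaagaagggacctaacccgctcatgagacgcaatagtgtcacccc
Fbp2: ctgctaaggacagggttagaagccaggggt
Eno1: aacgagcaggaaaggaagacagagtgggag

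In GRCm38.p6, as RefSeq gives it, Hk1 lies on chromosome 10 from 62268855 to 62379920 on the minus strand. Pfkfb3 lies on chromosome 2 from 11471430 to 11554071 and Fbp2 on chromosome 13 from 62836884 to 62858400, both on the minus strand. Gapdh lies on chromosome 6 from 125161852 to 125166467 on the minus strand. Eno1 lies on chromosome 4 from 150236708 to 150248879 on the plus strand. The whole Eno1 probe was found in a RefSeq promoter window of that gene, at 150237204 to 150237263. The window runs from 250 bases before an annotated start to 50 after it, and that start, at 150237224, lies inside the probe. A transcript that begins there lacks the first bases of the probe. The probe table lists 4 further transcripts of Pfkfb3 for its probe, which then reads several isoforms together. For the Gapdh probe it lists 2 other transcripts, Gm12070 on chromosome 11 and Gm5069 on chromosome 1, both transcribed pseudogenes, so their RNA could add to this signal. The GC content of the probes shown was 48.3% for Hk1, 55% for Pfkfb3, 41.7% for Fbp2 and 60% for Eno1, against a median of 45% over the 446 mRNA probes of the list as held here.

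All 5 probes were well above background on both arrays, and none of their spots was saturated or marked as an outlier, while the local background of 3 (Fbp2, Gapdh and Eno1) was marked as a population outlier on 1 array. Each log2 ratio sets surgery over control after quantile normalization of the arrays, and signals are given as deposited. The error of a log2 ratio is the spot error of the reading software over both arrays, and covers the measurement of a spot and not the mice. Of 44044 probes measured in both pools, 1.47% were higher in the surgery pool by 2-fold or more and 1.95% were lower by that much, together 3.42%. Without normalization between the arrays, 24.0% of these calls were higher instead of 43.0%, and the median log2 ratio moved from 0.04 to -0.07. Among the enzymes, 3 passed this limit upwards and 1 downwards, and nothing can be read from this count against those shares, since the list was made of changed probes. The median log2 ratio of the 5, 1.06, is the value of Pfkfb3. It does not describe the pathway, since the members were chosen for a change in either direction.

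**Figure D1:**
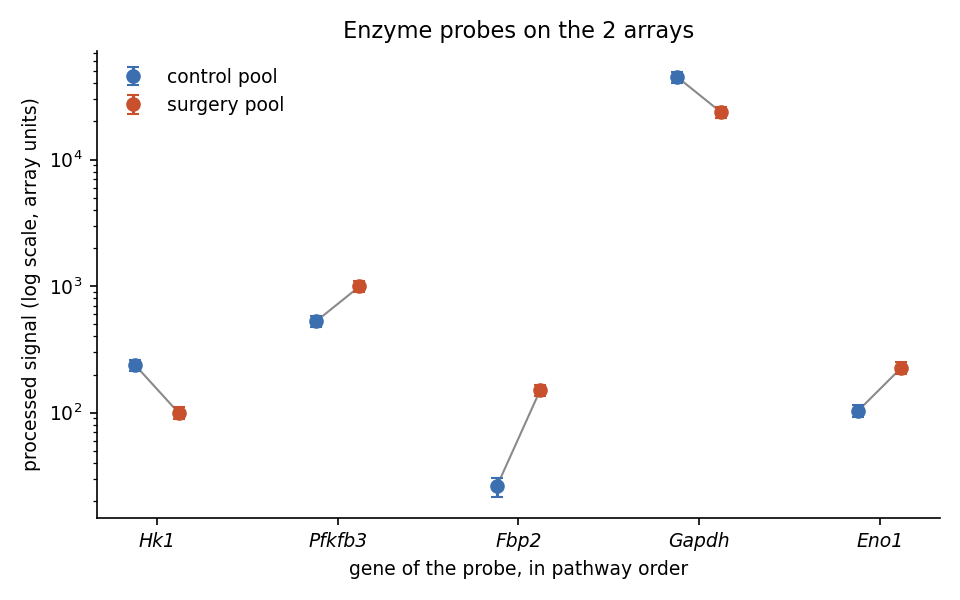
Processed signal (vertical axis, log scale, array units) of the 5 enzyme probes in the control pool and in the surgery pool, with the spot error as bars. Hk1 and Gapdh were lower and Pfkfb3, Fbp2 and Eno1 higher on the surgery array, and the levels of different probes cannot be set against each other.

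Hk1, hexokinase 1, phosphorylates glucose in the first step of glycolysis and is the main hexokinase of brain. Its signal was 236 ± 23.8 (spot error) in the control pool and 99.2 ± 10.6 in the surgery pool. The surgery pool was lower, with a log2 ratio of -1.10 (spot error 0.21), or 2.14-fold. Among 35 measured spots within 5 rows and 2 columns of it, the median log2 ratio was 0.04. Of the 8 within 2 rows and 1 column, 5 were above 0, with a median of 0.07. In the column of Hk1 itself, however, all 6 measured spots were below 0, from -3.03 to -0.06. One of these spots was lower than Hk1, and it lies in the row directly above in the same column, where the signal was 2390 in the control pool and 265 in the surgery pool, a log2 ratio of -3.03. The spot directly below had signals of 638 and 306, with a log2 ratio of -0.89. Apart from the spot above, no nearby spot passed a 2-fold change in either direction. Whether the lower values in this column bear on the Hk1 spot was not tested. Hk1 has 2 RefSeq mRNAs, and this probe was listed for 1 transcript.

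Pfkfb3 makes and breaks down fructose 2,6-bisphosphate, the strongest activator of phosphofructokinase, and so favours glycolysis. Its signal was 527 ± 52.8 in the control pool and 993 ± 99.4 in the surgery pool. The surgery pool was higher by 2.08-fold, a log2 ratio of 1.06 (spot error 0.20). The 33 measured spots around it had a median log2 ratio of 0.16, and none reached that of Pfkfb3. Of these, 1 was past 2-fold upwards and 2 downwards. In the column of Pfkfb3 itself, 1 of 7 measured spots was below 0, with a range from -0.04 to 0.60. With that local median subtracted, Pfkfb3 had a log2 ratio of 0.90, which is under 2-fold.

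Fbp2 is the muscle form of fructose 1,6-bisphosphatase, which runs the phosphofructokinase step backwards in gluconeogenesis. Its signal was low, at 26.1 ± 4.40 in the control pool and 150 ± 15.6 in the surgery pool. The surgery pool was 6.28-fold higher, a log2 ratio of 2.65 (spot error 0.29), the largest ratio of the 5. The spot lies in column 163 of 164, close to the edge of the array. All 14 measured spots within 2 rows and 1 column of it had a log2 ratio above 0, and 9 of these were at least 2-fold higher. Over 5 rows and 2 columns, 37 of 38 spots were above 0 and 20 of them past 2-fold, with a median of 1.02. Among these is a probe named for a human lincRNA, whose signal was 19.8 in the control pool and 65.6 in the surgery pool.

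The difference at Fbp2 can also be given as signal. After normalization, the surgery signal of Fbp2 exceeded the control signal by 134. In 28 nearby spots with signals under 500 on both arrays, the surgery signal exceeded the control signal in every spot, by a median of 119 (quartiles 75.9 and 146, range 7.24 to 257). In 9 of the 28, the difference was larger than that of Fbp2. With the local median difference taken off the surgery signal, a calculation chosen after seeing the data, the log2 ratio of Fbp2 was 0.66. In column 163, 11.8% of the measured spots were at least 2-fold higher, and in column 164, 22.5%. Before the last 14 columns of the array the share was 0.792%. The part of this regional difference in the Fbp2 value was not tested further. The local background of the Fbp2 spot on the surgery array was marked as a population outlier, at a median pixel of 23 against 19 on the control array.

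Gapdh makes 1,3-bisphosphoglycerate and NADH in the first energy-yielding step of glycolysis. The signal of its listed probe was 44727 ± 4473 in the control pool and 23720 ± 2372 in the surgery pool. The surgery pool was lower, with a log2 ratio of -0.98 (spot error 0.20), or 1.97-fold, just under the 2-fold limit. In the authors' normalized values the same probe had -1.18, inside the limit. Pfkfb3 was the member nearest to the limit on the inside in those values, at 1.07. The 44 measured spots around Gapdh had a median log2 ratio of -0.07, and 5 of them were lower than Gapdh. Of the 14 within 2 rows and 1 column of it, 9 were above 0, with a median of 0.16. In the column of Gapdh itself, 7 of 8 measured spots were below 0, and the 8 ranged from -1.01 to 0.18. Whether this bears on the Gapdh spot was not tested.

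The arrays also carry 12 quality control probes named for GAPDH or PGK1, with 10 spots each, that took no part in choosing the members. They are named for mouse, rat and human, and their names end in _3 or _5. By custom such endings stand for the 3′ and 5′ part of a transcript, but the sources used here do not define them. The errors below are SDs between spots of 1 probe on the same 2 arrays, and describe the array and not the mice. By their names, the mouse probes give further readings of the RNA of Gapdh and of Pgk1, phosphoglycerate kinase, the enzyme of the next step. Whether the rat and human probes read the same mouse RNA was not examined.

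The mouse probes for GAPDH did not show the difference of the listed probe. Mouse-GAPDH_3 had a mean signal of 213599 ± 4892 in the control pool and 225883 ± 7005 in the surgery pool (SD, n = 10 spots). Its mean log2 ratio was -0.00 ± 0.06, with single spots from -0.06 to 0.11. Mouse-GAPDH_5 had signals of 159059 ± 1668 and 153138 ± 1974 (SD, n = 8 spots), with a log2 ratio of -0.11 ± 0.02. The listed probe, at -0.98, lay below every spot of both mouse probes, and below them by more than its spot error. Probes for the same gene thus disagreed on whether Gapdh RNA was lower after surgery.

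Among the probes named for the other species, those ending in _5 were lower on the surgery array. Rat-GAPDH_5 had a log2 ratio of -0.79 ± 0.02 (SD, n = 9 spots) and Human-GAPDH_5 of -0.78 ± 0.04 (SD, n = 10 spots). Rat-GAPDH_3 had 0.05 ± 0.08 (SD, n = 9 spots) and Human-GAPDH_3 had -0.13 ± 0.03 (SD, n = 7 spots). How well the rat and human probes match the mouse transcript was not examined here.

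The probes named for PGK1 also differed by their endings. Mouse-PGK1_5 went from a mean signal of 4282 ± 176 in the control pool to 2381 ± 82.8 in the surgery pool, with a log2 ratio of -0.77 ± 0.04 (SD, n = 10 spots). Mouse-PGK1_3 had signals of 101389 ± 2509 and 99411 ± 3340, with a log2 ratio of -0.11 ± 0.05 (SD, n = 9 spots). The spots of these probes did not overlap. Rat-PGK1_5 had -0.74 ± 0.05 and Human-PGK1_5 -0.74 ± 0.08 (SD, n = 10 spots each), while Human-PGK1_3 had -0.18 ± 0.04 (SD, n = 9 spots). Rat-PGK1_3 was dim, with signals of 30.1 ± 4.34 and 49.6 ± 16.6, and its log2 ratios ran from -0.29 to 1.50 over 8 spots. In all 6 pairs the probe ending in _5 had the lower log2 ratio and no spot of one probe overlapped with those of the other, and the difference, _5 minus _3, ranged from -0.11 for Mouse-GAPDH to -1.51 for Rat-PGK1. None of the 12 was changed 2-fold in the mean. With the arrays scaled to their 75th percentile, the 5 lower probes ending in _5 still had log2 ratios from -0.72 to -0.52, but Mouse-GAPDH_5 and the 5 bright probes ending in _3 lay above 0, from 0.09 to 0.25, so that no direction holds for these 6.

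**Figure D2:**
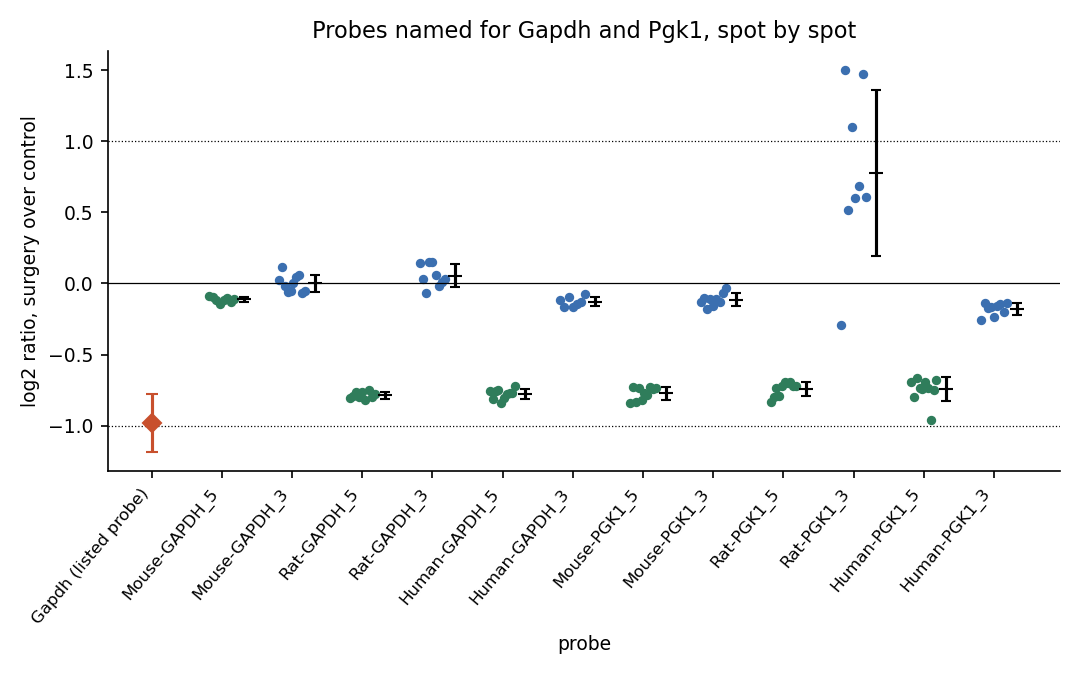
Log2 ratio of surgery over control (vertical axis) for the listed Gapdh probe (diamond, ± spot error) and for every unmarked spot of the 12 control probes named for GAPDH and PGK1 (points, green for names ending in _5 and blue for _3), with mean ± SD between spots beside them. The listed probe lies at -0.98, the mouse GAPDH probes near 0, and the other probes ending in _5 between -0.79 and -0.74 in the mean, and dotted lines mark a 2-fold change.

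Hk1 and Gapdh, both lower after surgery, were read at 0.276% and 4.42% of the transcript's span, and Eno1, which was higher, at 0.368%. Pfkfb3 and Fbp2, both higher, were read at 68.5% and 99.0%. The members were chosen by these ratios, so no relation of direction to position can be read from them. The genomic span includes introns and is not a distance along the mRNA. The spots of Eno1 and Fbp2 both lie near the same edge of the array, where most nearby spots were also higher. Among listed mRNA probes outside the last 14 columns, 17.4% of the 167 lower ones and 11.8% of the 119 higher ones lay in the first 10% of this span. In the last 10% lay 22.2% of the lower and 45.4% of the higher ones. Inside the last 14 columns, 22.6% of the 31 lower and 23.3% of the 129 higher ones lay in the first 10%. The last 10% held 25.8% and 25.6% of them. These shares describe a list that is held here in shortened form, and no test was run on them. Shares over all probes of the arrays could not be given, since most probes could not be placed on a transcript here. Per the labels, the RNA was amplified with random primers to cover whole transcripts. RNA quality was assessed on a gel with no value in the files used here, and its part in the ratios of Hk1, Gapdh and Pgk1 was not tested.

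Eno1, enolase 1, makes phosphoenolpyruvate and is the form of enolase found in most cell types, with Eno2 as the neuronal form. Its signal was 103 ± 10.95 in the control pool and 227 ± 23.1 in the surgery pool. The surgery pool was 2.45-fold higher, a log2 ratio of 1.29 (spot error 0.21). The spot lies in column 164, the last of the array, near the same edge as Fbp2. Of 25 measured spots around it, 23 were above 0, 7 were at least 2-fold higher and 5 had a higher ratio than Eno1, with a median log2 ratio of 0.60. With that median subtracted, Eno1 had a log2 ratio of 0.69. In 18 nearby dim spots the surgery signal exceeded the control signal by a median of 65.5 (range 13.7 to 214), against 142 for Eno1. With this difference taken off, its log2 ratio was 0.83. The part of the regional difference in the Eno1 value was not tested further.

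**Figure D3:**
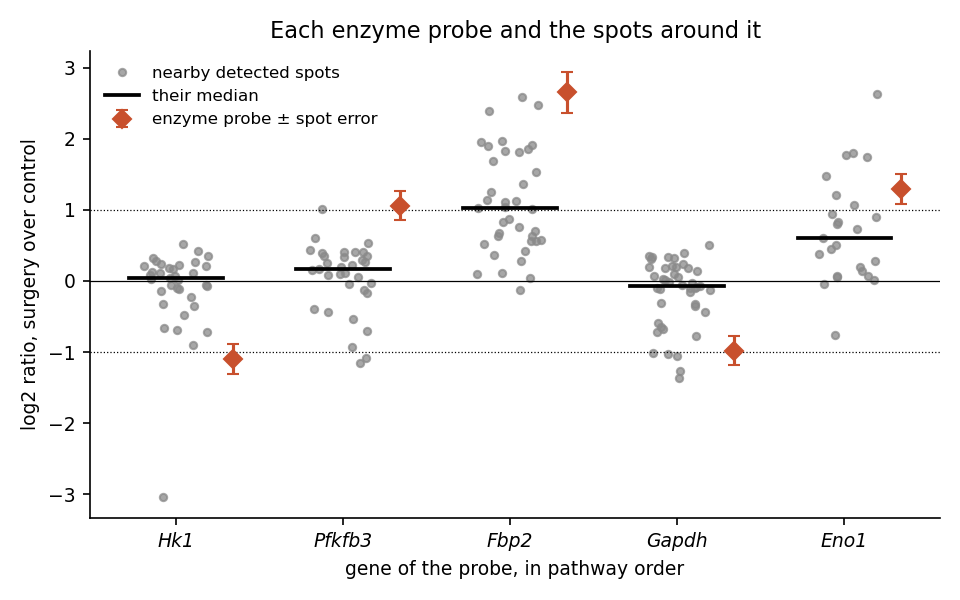
Log2 ratio of surgery over control (vertical axis) of each enzyme probe (diamond, ± spot error) beside the measured spots within 5 rows and 2 columns of it (grey points, with their median as a black line). The spots around Fbp2 and Eno1 are shifted upwards, with medians of 1.02 and 0.60, while those around Hk1, Pfkfb3 and Gapdh have medians of 0.04, 0.16 and -0.07, and dotted lines mark a 2-fold change.

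The ratios held their direction under each way of processing that was tried, while their size did not. Pfkfb3 varied least, from 0.90 to 1.08. Hk1 ranged from -1.25 to -0.81, and it was under 2-fold with the median pixel of each spot, which keeps the background, and with the normexp background correction. That correction was run with an offset of 50 added to each signal. Background kept in the signal and an added offset both make the ratios of dim spots smaller by construction. Gapdh ranged from -1.18 to -0.75 and passed 2-fold only in the authors' normalized values. Eno1 ranged from 0.69 to 1.31. Fbp2 ranged most, from 0.66 to 2.69, with 1.33 for the median pixel, 1.11 with normexp, 1.63 with the local median subtracted and 2.07 in the authors' values. Fbp2 was the only enzyme past 2-fold with the median pixel or with normexp.

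**Figure D4:**
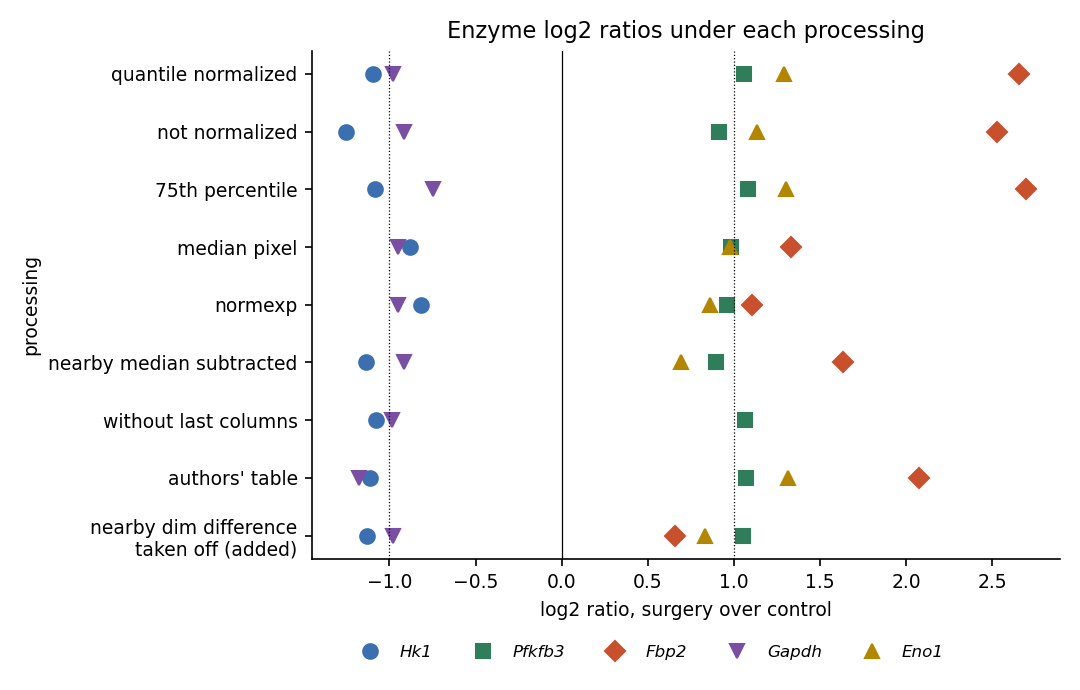
Log2 ratio of surgery over control (horizontal axis) of the 5 enzymes under each processing (rows); Fbp2 and Eno1 have no value where the last columns were left out. Hk1 and Gapdh stay below 0 and the others above 0, and Fbp2 moves most, from 2.69 down to 0.66, with dotted lines at a 2-fold change.

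Of 56 other genes of glucose uptake, glycolysis, gluconeogenesis and the pyruvate dehydrogenase step, Pgk1 has the control probes above and 5 have a probe in the study's lists, while the probes of the other 50 could not be named here. These 5 probes read non-coding transcripts that overlap exons of the genes on the same strand, and all were listed for a change on these arrays. Of these, 3 were measured on both arrays, and all 3 were at least 2-fold changed, 2 upwards and 1 downwards. ENSMUST00000126933, which overlaps Dlat, a subunit of the pyruvate dehydrogenase complex, had a signal of 1921 in the control pool and 633 in the surgery pool, with a log2 ratio of -1.47 (spot error 0.20). It was -1.42 with the median pixel, and its spot, in column 149, alone of the 5 lies outside the last 14 columns. The median of its own nearby spots was -0.29, and with that subtracted its log2 ratio was -1.19.

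ENSMUST00000174372 overlaps Slc2a1, the glucose transporter of the blood-brain barrier and astrocytes. Its signal was 130 in the control pool and 234 in the surgery pool, with a log2 ratio of 1.02 (spot error 0.21). Its spot lies diagonally next to that of Fbp2, and the median of its own nearby spots was 1.19. ENSMUST00000134502 overlaps Pdk3, a kinase that switches pyruvate dehydrogenase off, and had dim signals of 18.8 and 67.1, a log2 ratio of 1.96 (spot error 0.40). With the median pixel that ratio was 0.37. ENSMUST00000147307, overlapping Eno2, and ENSMUST00000129152, overlapping Pgm2, an enzyme of sugar phosphate conversion, were above background only in the control pool, with signals of 33.4 and 5.11 for the former and 26.3 and 5.94 for the latter. Against the lowest normalized signal well above background in the surgery pool, 18.9, they were 1.70-fold and 1.35-fold lower. That signal is not a limit for a spot that was not detected, so these are not smallest possible changes. With the median pixel the log2 ratios were -0.43 and -0.38, and with normexp -0.32 and -0.37.

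Markers could not settle the cell makeup of the pools. Of 45 marker genes of 9 cell types, 12 have a probe in the list of changed mRNAs, and the hippocampal identity could not be checked with them. Of 12 meningeal and arachnoid genes, 9 have a probe, 8 could be compared between the pools, and all 8 were at least 2-fold higher in the surgery pool, by a log2 ratio of 1.04 to 3.29. Their summed signal was 22079 in the control pool and 61756 in the surgery pool. Of these 8, Aldh1a2 and Foxc2 lie in the last 14 columns, and none of the 8 was at 0. Camk2a, the 1 of 7 neuronal genes with a probe, had a log2 ratio of 1.35 at low signals of 48.5 and 111. Clic6, the 1 of 4 choroid plexus genes with a probe, had -1.38, with signals of 1063 and 368. All were listed because they changed, and the part of cell makeup in the enzyme values was not tested.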

How the data were processed

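Pooled hippocampal RNA was read on 1 one-colour array per group, and groups were taken from the treatment labels. Per the labels, the arrays were read with Agilent Feature Extraction 11.0.1.1. The deposited intensities are processed signals that the authors' software had background-corrected and detrended array by array, with no normalization between arrays. The authors' table holds log2 values after quantile normalization in GeneSpring GX. Here log2 processed signals of the 61500 spots that are not controls were quantile normalized, spots marked as non-uniform or population outliers on either array were left out, spots of a probe were averaged, and 44044 probes were kept, those positive, significant and well above background in both pools. Control probes were mapped by the same curves. A change was counted at 2-fold, and no test was run. The spot error and the number of arrays limit the precision.

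The members and lists were chosen with earlier results of these data known. All probes of the members, and all named probes of a list of 61 pathway genes, are reported, and single neighbouring spots were chosen after their values were seen. On simulated arrays of 44044 probes, 100% of the 200 changed probes were found, with 0 calls among the unchanged probes. The median error in that run was 0.07, while the median spot error of the measured probes was 0.21. That run therefore checked only the steps of the calculation. How calls fare at the measured spot error, for dim spots, for ratios near 2-fold or near the array edge was not tested. The normexp correction, with an offset of 50, was planned on mean signals but was run on median pixels. The columns used here hold no mean signal of the spots. Python 3.11.15, numpy 2.4.6, pandas 2.3.3, matplotlib 3.10.9, R 4.3.3 and limma 3.58.1 were used. A marker gene and a probe sequence are not reported here.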

Additional observations from a re-analysis of the deposited data

How the results depend on the processing

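The direction of the 5 enzymes did not turn under any of the alternatives. Of the 5, 4 were at least 2-fold changed, and this count was 3 without normalization, 5 in the authors' values, 1 with the median pixel, 1 with normexp, 2 with the local median subtracted, 2 without the last 14 columns, where only 3 of the enzymes have a value, and 2 with the difference of nearby dim spots taken off, which was chosen after seeing the data. The 3 changed probes among the other pathway probes came to 1 with the median pixel, with normexp and without the last columns. Over all probes, 647 were higher and 858 lower. These came to 210 and 243 with the median pixel, 174 and 190 with normexp, 130 and 285 among the brighter 50% of the measured probes and 2384 and 2748 with no filter on detection. Without normalization 1483 were lower. Without the last columns, which hold 327 of the spots that were higher, 348 were higher. The other changes stayed within 1.5 times the reported counts, and where not stated the cause was not tested. Of the 5 enzymes, Fbp2, with a control signal of 26.1, moved most between these alternatives, from 0.66 to 2.69. No paired analysis was possible because each group has 1 array and no test was run.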
